A study of Mus musculus with 2 samples.

Results

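The levels of 9 genes of iron storage, iron uptake and haem synthesis were followed in embryonic mouse forebrain. They were the ferritin chain genes Ftl1 and Fth1, the iron importers Tfrc and Slc25a37, and the haem synthesis genes Alas2, Alad, Urod, Cpox and Fech. They were chosen by name, and all 9 were found by gene ID among the 43346 gene rows of the tables. The tissue was forebrain of strain B6NCrl embryos of both sexes at embryonic day 11.5, described as healthy and with no treatment or genetic change given. Replicate 1 was a pool of 109 embryos and replicate 2 a pool of 88, and each library was made from RNA longer than 200 nucleotides in an amount equal to 1 cell. The assay is titled single-cell RNA sequencing, with a SmartSeq protocol, but the source was pooled tissue, so the values are of a bulk sample. These libraries are one group of 2 samples, so levels and the spread between libraries can be given but no groups can be compared and no p-value is given. Values are given for replicate 1 and then replicate 2. Levels are in TPM, transcripts per 1000000 transcripts, which corrects for transcript length and so can be compared between genes.

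The gene rows held 27395002 and 27977544 expected counts, which are estimated reads per gene. Spike-in RNAs took a further 4.35% and 3.35% of all counts, and as shares of TPM 8.44% and 6.56%. All 10 neural progenitor markers and all 8 neuron markers listed had at least 1 TPM in both libraries, beside 16.6% of all gene rows. These lists were not of forebrain identity genes, so the labelled region was not tested. Of the progenitor markers, Vim had 741 and 1290 TPM, Fabp7 438 and 1010, and Ccnd2 246 and 284. Of the neuron markers, Tubb3 had 512 and 356 TPM, Stmn2 176 and 187, and Elavl4 125 and 198. Among 8 liver and yolk sac markers, the highest value in either library was 5.15 TPM, for Apoa1, with 0.76 in replicate 1, while Afp had 1.98 and 1.23 TPM and Apoa2 1.6 and 0.75. Because these are bulk samples, fewer cells of a type and less RNA per cell cannot be told apart.

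Cells take up iron as transferrin bound to the transferrin receptor, which Tfrc encodes, and keep what they do not use inside ferritin, a hollow shell built of heavy chains (Fth1) and light chains (Ftl1). Iron for haem enters the mitochondrion through carriers such as mitoferrin 1, the product of Slc25a37. Haem is built in a chain of steps that begins and ends in the mitochondrion: aminolaevulinate synthase makes the first precursor, Alad, Uros and Urod are among those that act in the cytosol, and Cpox, Ppox and Fech finish the ring and insert iron. The synthase has a general form, Alas1, and a form made in red cell precursors, Alas2, which feeds haemoglobin.

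Some of these messages are controlled by iron itself, through a short hairpin called the iron-responsive element that iron regulatory proteins bind when iron is scarce. Bound near the start of a message it blocks translation, and bound near the end it protects the message from decay. The hairpin was sought in annotated transcripts, on their own strand, as a C, any 5 bases, the loop CAGTGN or CAGAGN, and then 5 bases able to pair with the first 5, G with U allowed. It was found in 4 of the 9 genes, Ftl1, Fth1, Alas2 and Tfrc, against 1.71% of 55450 annotated genes and 1.32% of 141767 transcripts. The pattern is that of the known element and the 9 genes were chosen by name, so this share is not an independent result. The matches follow because they set these 4 genes apart from the other members, with capitals marking the bulged C and the loop of 6 bases. Coordinates are mm10, on the minus strand for Ftl1 and the plus strand for the others.
Ftl1 (chr7:45459781-45459808): tgtcttgCttcaaCAGTGTttgaacgga
Fth1 (chr19:9982731-9982758): tttcctgCttcaaCAGTGCttgaacgga
Alas2 (chrX:150547457-150547484): tttggttCgtcctCAGTGCagggcaaca
Tfrc element 1 (chr16:32631159-32631186): tatttatCagtgaCAGAGTtcactataa
Tfrc element 2 (chr16:32631218-32631245): taattatCggaagCAGTGCcttccataa
Tfrc element 3 (chr16:32631597-32631624): acattatCgggagCAGTGTcttccataa
Tfrc element 4 (chr16:32631662-32631689): tctatatCggagaCAGTGAtctccatat
Tfrc element 5 (chr16:32631709-32631736): taattatCgggaaCAGTGTttcccataa

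The matches of Ftl1, Fth1 and Alas2 lay in exon 1, in the 5′ untranslated region, with the bulged C at bases 84, 93 and 90 of the transcript. The 5 matches of Tfrc all lay in exon 19, in the 3′ untranslated region, and Tfrc was the only annotated gene with a transcript holding 5 or more. The ferritin pair shared 25 of 28 bases and the same stem, while Alas2 shared 13 of 28 with Ftl1. Within Tfrc, elements 2 and 3 shared 24 of 28 bases, and element 1 alone had the loop CAGAGT. A match describes letters and does not show that a protein bound there in this tissue.

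**Figure D1:**
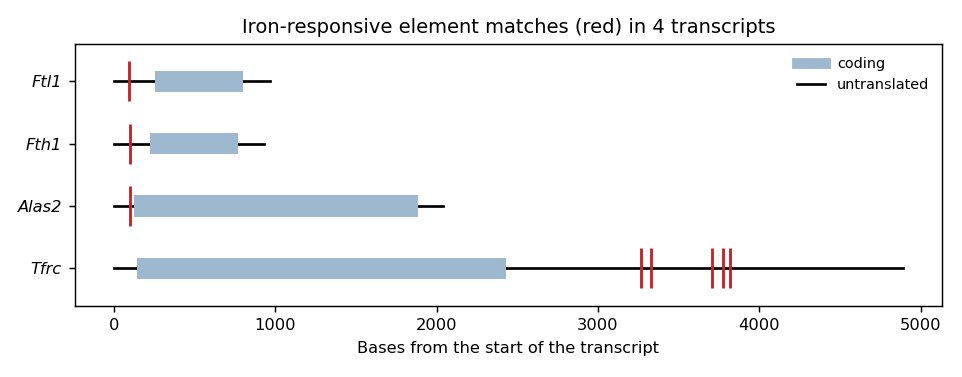
Positions of the iron-responsive element matches (red) along 4 annotated transcripts, in bases from the transcript start, with coding stretches in blue and untranslated stretches as lines. Ftl1, Fth1 and Alas2 have 1 match each before the coding stretch, and Tfrc has 5 after it.

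The 9 genes differed in level by about 3 orders of size, and ferritin dominated them. Their summed level was 8732 and 8125 TPM, of which Ftl1 and Fth1 made up 97.7% and 95.3%. By mean TPM the order was Ftl1, Fth1, Urod, Alad, Tfrc, Alas2, Fech, Cpox and Slc25a37. The values of neighbouring genes overlapped between libraries for Urod with Alad, Alad with Tfrc, Tfrc with Alas2, Fech with Cpox and Cpox with Slc25a37, so those neighbours were not ordered beyond their spread. Among neighbours, Ftl1 stood above Fth1, Fth1 above Urod, and Alas2 above Fech without overlap. Genes further apart in the order could still overlap, since Tfrc had 6.62 TPM in replicate 1 and Fech 22.5. At a TPM of at least 1, 7 of the 9 were detected in both libraries and the other 2, Cpox and Slc25a37, in replicate 2 alone. Over all gene rows, 16.6% were detected in both.

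**Figure D2:**
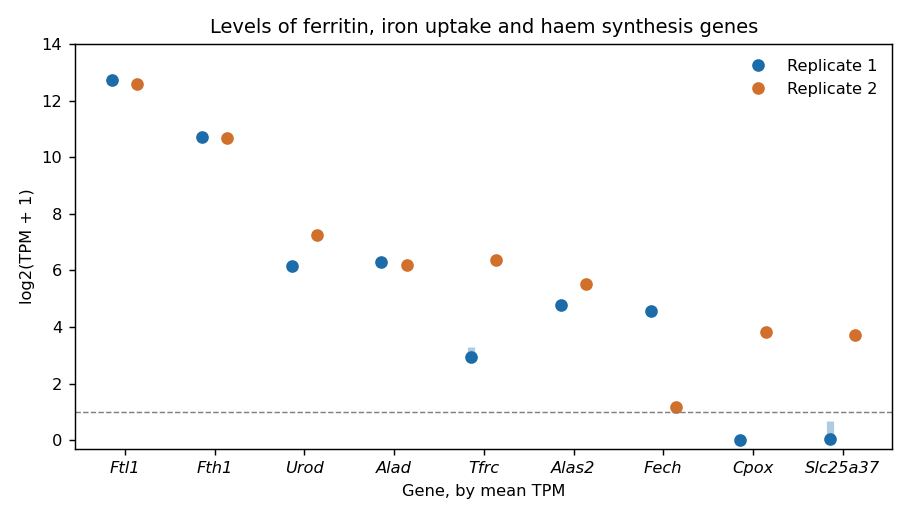
Levels of the 9 genes as log2(TPM + 1) in replicate 1 (blue) and replicate 2 (orange), ordered by mean TPM, with the intervals of the authors' tables as pale bars where wider than the points and a dashed line at 1 TPM. The ferritin points almost coincide, while those of Tfrc, Fech, Cpox and Slc25a37 lie far apart. The intervals lie around another estimate of TPM in the authors' tables, the posterior mean, and the ferritin points lie slightly above theirs.

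Ftl1, the light chain that helps iron settle in the ferritin core, was among the most abundant messages of the tissue. It (ENSMUSG00000050708.10, chromosome 7, 45457944 to 45459884, minus strand) had 6846 and 6108 TPM, from 132982 and 117070 counts. The libraries were close, with a mean of 6477 ± 522 TPM (SD, n = 2) that ranked number 5 among all gene rows. By counts, replicate 1 was 1.16 times replicate 2 per 1000000 gene counts, with a 95% interval of 1.15 to 1.17 that covers counting error only. The light chain message alone took 0.485% and 0.418% of the gene counts.

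Fth1, the heavy chain with the iron-oxidising centre, was the steadiest of the 9. It (ENSMUSG00000024661.6, chromosome 19, 9980598 to 9985098, plus strand) had 1682 and 1639 TPM from 28877 and 27878 counts, a mean of 1661 ± 30.8 TPM (SD, n = 2), rank 60. Both libraries held about the same level. The ratio of Fth1 to Ftl1 was 0.246 and 0.268 in TPM, so Ftl1 stood at about 4 times the level of Fth1 in either library.

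Several rows share sequence with ferritin, which limits how exactly its level is known. Of 13 other rows whose symbol begins with Ftl or Fth, 10 had 0 counts in both libraries, the Fthl17 genes of the X chromosome among them. Ftl1-ps1, on chromosome 13 and carried as protein-coding in the annotation, had 125 and 122 TPM from 2303 and 2224 counts, and its division of reads with Ftl1 is uncertain. Ftl2-ps and Ftl1-ps2 had at most 11.8 counts. Gm22133, annotated as a microRNA gene of 109 bases inside Ftl1, was listed at 6123 and 5670 TPM from 1370 and 1258 counts, and reads of such an internal row and of Ftl1 itself cannot be separated. Adding the TPM of all of these rows would lower the ratio of Fth1 to Ftl1 to 0.128 and 0.138, nearly all of it through Gm22133. That row has a high TPM because it is so short. Its 1370 and 1258 counts were few beside the 132982 and 117070 of Ftl1, so by counts the addition would be small.

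Among other genes that handle iron in the cytosol, the poly(C)-binding proteins that can deliver iron to ferritin were present in both libraries. Pcbp1 had 174 and 136 TPM, Pcbp4 171 and 135, and Pcbp2 73.8 and 92.5. Ncoa4, the receptor that sends ferritin to the lysosome, had 107 and 49.7 TPM. Of these 6 listed genes 5 were detected in both libraries, beside 16.6% of all gene rows. Mitochondrial ferritin, Ftmt, had 0 counts in both libraries. The iron regulatory protein genes Aco1 and Ireb2 had 10.6 and 7.93 TPM and 37.9 and 4.76 TPM. Fbxl5, whose product marks Ireb2 protein for destruction when iron is plentiful, had 0.10 and 23.7 TPM. Aco1 was close between libraries, whereas Ireb2 and Fbxl5 lay apart in opposite directions.

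Tfrc, the transferrin receptor, was read far more in replicate 2 than in replicate 1. It (ENSMUSG00000022797.11, chromosome 16, 32608920 to 32632794, plus strand) had 6.62 and 82.5 TPM, from 510 and 5534 counts. Replicate 2 was 10.6 times replicate 1 per 1000000 gene counts (95% interval 9.70 to 11.7, counting error only). The mean was 44.6 ± 53.7 TPM (SD, n = 2), so the SD exceeded the mean. The lower library still held 510 counts.

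Tfrc reads were also assigned to different transcripts in the libraries. In replicate 1, 503 of 510 counts fell to ENSMUST00000128285, a retained intron transcript of 3527 bases that starts late in the gene and runs through the last exon, and 6.57 fell to the full protein-coding transcript ENSMUST00000023486 of 4890 bases. In replicate 2 the full transcript held 3055 counts, the late-starting one 2222, and the short retained intron transcript ENSMUST00000137901 held 257. As shares of the gene's TPM, the late-starting transcript led in both libraries, with 99.1% and 35.4%, and the full transcript had 0.92% and 34.8%. Both of these transcripts carry all 5 iron-responsive element matches, so transcripts with the elements held 100% and 95.4% of the Tfrc counts, and 100% and 70.2% of its TPM. The protein-coding transcripts alone stood at 0.06 and 28.8 TPM.

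Slc25a37, mitoferrin 1, was read almost only in replicate 2. It (ENSMUSG00000034248.7, chromosome 14, 69241848 to 69285112, minus strand) had 0.03 and 12.1 TPM from 3 and 677 counts, a ratio of replicate 2 to replicate 1 of 221 with a 95% counting interval of 75.3 to 1074. In replicate 2, 79.6% of its TPM fell to ENSMUST00000184914, annotated as a target of nonsense-mediated decay, and 19.5% to the protein-coding transcript ENSMUST00000037064. The 3 counts of replicate 1 all fell to that protein-coding transcript. Slc25a28, the widely expressed mitoferrin 2, had 1.14 and 17.4 TPM, so it too was higher in replicate 2.

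Other uptake and export genes did not reach 1 TPM in both libraries by the main estimate. Of 15 listed, 14 were matched and none had 1 TPM in both, beside 16.6% of all gene rows. At least 1 TPM was reached by 2 in replicate 1 alone and by 4 in replicate 2 alone. Slc11a2, which moves iron out of the endosome after receptor uptake, had 53.8 and 0.65 TPM, and transferrin itself, Trf, had 28.8 and 0.93. Slc39a8, a metal importer of the cell surface, had 0 and 22.3 TPM. By the posterior mean of TPM, however, Slc11a2 (53.8 and 1.33), Trf (29.55 and 1.52) and Slc39a14 (1.02 and 17.5) reached 1 in both. The absence of genes at 1 TPM in both thus depends on the estimate, and the share of all gene rows was not taken on the posterior mean. The iron exporter Slc40a1 had 2 counts in each library, and the liver hormone genes Hamp and Hamp2, along with Hfe, Tmprss6 and Steap2, had 0 in both. By counting error a count of 0 allows up to 3 counts, or 0.110 and 0.107 counts per 1000000 in the libraries. That floor does not cover the spread between libraries. Slc39a8, for one, had 0 counts in replicate 1 and 1623 in replicate 2.

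**Figure D3:**
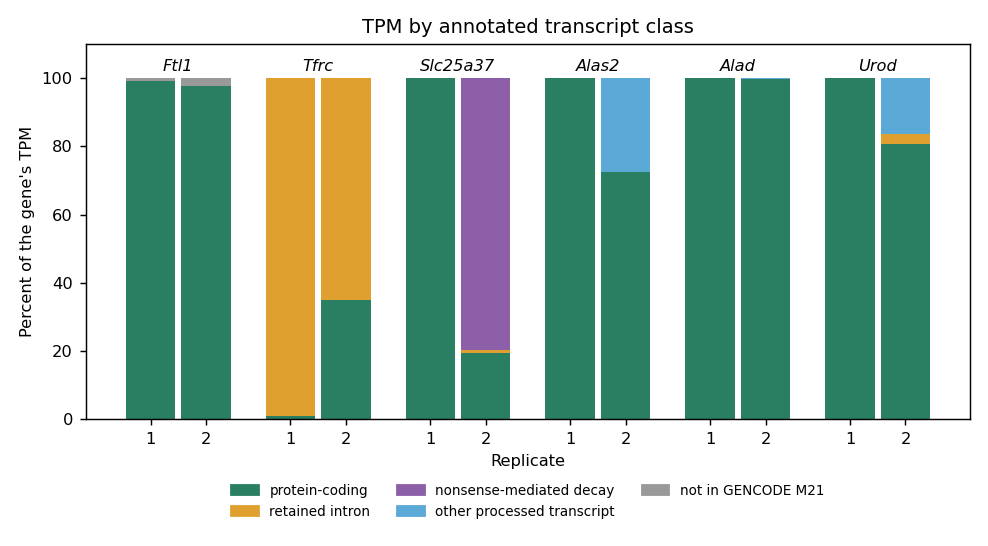
Percent of each gene's TPM by annotated transcript class, for the 6 genes with more than 1 transcript, in replicates 1 and 2. Ftl1 and Alad are almost wholly protein-coding, Tfrc is 99.1% one retained intron transcript in replicate 1, and Slc25a37 changes class between libraries, with 3 counts in replicate 1.

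Of the haem synthesis genes, those of the listed early and cytosolic steps were read in both libraries at higher levels than those of the last steps, a grouping made after the values were seen, with Alas2 close to Fech at the border. The 8 listed genes of the pathway summed to 376 and 467 TPM. Alas1, Alad, Uros and Urod each had at least 57.6 TPM in both libraries, and Cpox, Ppox and Fech at most 22.5 in either. Alas2, which shares the first step with Alas1, lay between them at 26.4 and 44.5 TPM, not far above the 22.5 of Fech in replicate 1. Alas1 had 83.3 and 123 TPM, and Uros 95.03 and 57.6. Ppox, which carries out the step before Fech, had 0.18 and 3.57 TPM from 3 and 263 counts. In all, 6 of the 8 were detected in both libraries, beside 16.6% of all gene rows, and Cpox and Ppox in replicate 2 alone.

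Alas2, the red cell form of the first enzyme, was present in both libraries at a level below Alas1. It (ENSMUSG00000025270.9, chromosome X, 150547375 to 150570638, plus strand) had 26.4 and 44.5 TPM from 1127 and 1514 counts, a mean of 35.4 ± 12.8 TPM (SD, n = 2). Replicate 2 was 1.69 times replicate 1 in TPM but 1.32 times in counts per 1000000 (95% interval 1.22 to 1.42, counting error only). Alas2 made up 24.0% and 26.6% of the summed TPM of both synthase genes, 25.3% ± 1.80 (SD, n = 2). In counts without length correction the order of the libraries turned, at 24.2% and 21.9%.

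The libraries differed in the Alas2 transcripts to which reads were assigned. The full protein-coding transcript ENSMUST00000066337 held 81.2% and 72.5% of its TPM. The rest fell in replicate 1 to the protein-coding ENSMUST00000112715, at 18.8%, and in replicate 2 to ENSMUST00000142474, a non-coding transcript of 569 bases, at 27.5% from 128 counts. Over protein-coding transcripts alone Alas2 had 26.4 and 32.3 TPM. Transcripts with the iron-responsive element match held 100% and 91.6% of its counts. Apex2, on the opposite strand across Alas2, had 73.0 and 74.2 counts, and with the use of strand not given, reads of these genes where they overlap cannot be told apart.

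Haemoglobin genes stood far above Alas2. The 8 of them summed to 32269 and 38849 TPM, or 1225 and 873 TPM for each TPM of Alas2. Hbb-y had 12348 and 16181 TPM, Hba-a2 7689 and 8703, Hba-x 4019 and 4454, Hba-a1 3721 and 4456, Hbb-bh1 3362 and 3493, Hbb-bt 950 and 1308, and Hbb-bs 180 and 255, while Hbb-bh2 had 0 counts. All 7 that were read stood higher in replicate 2 in TPM and in counts per 1000000, as Alas2 did, but with TMM scaling Hbb-bh1 turned, at 1422 and 1419 counts per 1000000. How reads were divided between the near-identical Hba-a1 and Hba-a2 is uncertain.

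Few markers of red cells other than haemoglobin were detected in both libraries. Of 18 listed, 17 were matched and 3 were detected in both, near the 16.6% of all gene rows. Another 1 was detected in replicate 1 alone and 4 in replicate 2 alone. The list summed to 166 and 143 TPM. Car2 had 93.8 and 45.9 TPM and Ermap 41.3 and 23.9, and Car2 is also expressed outside red cells. Sptb, also detected in both, was close between libraries, at 2.87 and 2.88 TPM from 513 and 510 counts. Of the defining members, Gata1 had 2 and 0 counts, Tal1 4 and 0, Epor 2 and 0, and Epb42 0 in both. Klf1, a transcription factor of red cell precursors, had 27.0 and 0.88 TPM, Slc4a1, the anion exchanger of the red cell membrane, 0.17 and 30.1, and Rhd 0.14 and 34.9. The part of red cells in the levels of the haem and iron genes was not tested.

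Alad, the enzyme of the second step, was nearly level between libraries. It (ENSMUSG00000028393.6, chromosome 4, 62509169 to 62519918, minus strand) had 78.3 and 72.0 TPM from 1940 and 1769 counts, a mean of 75.1 ± 4.48 TPM (SD, n = 2). One protein-coding transcript, ENSMUST00000030090, held 100% and 99.8% of its TPM.

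Urod, which trims the side chains of the ring precursor in the last cytosolic step, had 70.7 and 152 TPM from 2198 and 3866 counts (ENSMUSG00000028684.10, chromosome 4, 116989965 to 116994413, minus strand). The mean was 112 ± 57.8 TPM (SD, n = 2), and replicate 2 was 2.16 times replicate 1 in TPM. By counts the ratio was 1.72 (95% interval 1.63 to 1.82, counting error only). A transcript of 162 bases, ENSMUST00000153629, took 25.1 TPM in replicate 2 from 35 counts and 0 in replicate 1. Over protein-coding transcripts the values were 70.6 and 123 TPM.

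Cpox and Fech, which act in the mitochondrion, differed between the libraries in opposite directions. Cpox (ENSMUSG00000022742.5, chromosome 16, 58670292 to 58717636, plus strand) had 0 counts in replicate 1, and 13.4 TPM from 914 counts in replicate 2. Against a floor of 3 counts in replicate 1, replicate 2 was at least 298-fold higher in counts per 1000000. That figure takes the 914 counts of replicate 2 as exact. The 95% interval of replicate 1 over replicate 2, counting error only, ran from 0 to 0.00413, which allows a smaller fold. Fech (ENSMUSG00000024588.8, chromosome 18, 64452914 to 64490251, minus strand), the ferrochelatase that inserts iron, had 22.5 and 1.26 TPM from 1409 and 78.0 counts, so replicate 1 was 18.4 times replicate 2 per 1000000 counts (95% interval 14.7 to 23.5, counting error only). Each had a single transcript in the tables. Fech was the only one of the 9 that was 2-fold or more higher in replicate 1.

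**Figure D4:**
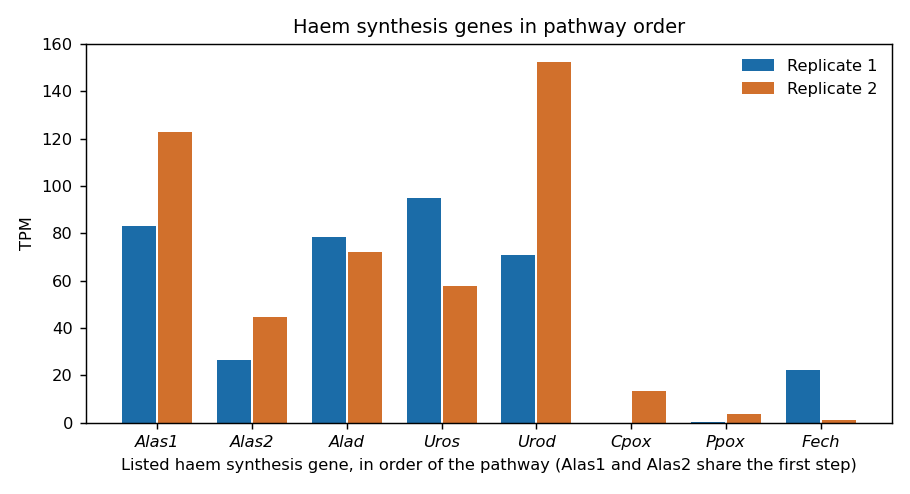
TPM of the 8 listed haem synthesis genes in pathway order, with replicate 1 in blue and replicate 2 in orange. Alas1, Alad, Uros and Urod have at least 57.6 TPM in both libraries, Cpox, Ppox and Fech stay at or below 22.5, and Alas2 lies between them at 26.4 and 44.5.

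Genes that assist haem synthesis were all detected in both libraries, 7 of 7, beside 16.6% of all gene rows. Pgrmc1, which binds ferrochelatase, had 239 and 225 TPM, Tmem14c, which carries a haem precursor into the mitochondrion, 227 and 336, and Slc25a38, the glycine carrier for the first step, 31.6 and 91.5. Among 11 genes of haem transport and breakdown, 2 were detected in both, near the 16.6% of all gene rows. Another 1 was detected in replicate 1 alone and 2 in replicate 2 alone. The constitutive haem oxygenase gene Hmox2 had 111 and 72.8 TPM, while the inducible Hmox1 had 0.09 and 27.3. Blvrb, a biliverdin reductase, had 32.4 and 97.2 TPM and the haem transporter Slc48a1 0.15 and 49.3. Abcg2, an exporter that can carry porphyrins and haem, lay the other way, at 49.9 and 0.18 TPM. Flvcr2, Slc46a1 and Hebp1 had 0 counts in both.

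Of 14 genes for mitochondrial iron and iron-sulphur clusters, 7 were detected in both libraries, beside 16.6% of all gene rows. Hspa9, the mitochondrial chaperone, had 70.7 and 244 TPM, Isca2 134 and 184, and Isca1 189 and 65.3. Glrx5, needed for cluster transfer, had 0 and 14.8 TPM, and Hscb 59.6 and 0. Fdx1l had 0 counts in both.

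Markers of macrophages, which recycle iron, and of vessels reached at most 65.8 TPM in either library. Of 13 macrophage markers 2 were detected in both, with a summed level of 132 and 78.0 TPM, led by Fcer1g at 65.8 and 23.3, and with Adgre1, Itgam and C1qa at 0 counts. Aif1 had 33.0 and 0.12 TPM, and Lyz2 0.04 and 25.7. Of 10 endothelial markers 5 were detected in both, with summed levels of 151 and 135 TPM. Over all gene rows the share detected in both was 16.6%. Esam had 44.8 and 47.3 TPM, Egfl7 31.6 and 31.5, and Kdr 14.3 and 17.3, so these 3 were close between libraries in TPM. By counts Egfl7 was less close, at 281 and 411. Pecam1, at 19.7 and 0.02 TPM, and Flt1, at 0 and 17.9, lay far apart in opposite directions. Of the endothelial list, 2 were detected in replicate 1 alone and 1 in replicate 2 alone, while Cldn5 and Emcn had 0 counts. Their part in the levels of the 9 genes was not tested.

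How far the libraries lay apart was read on the log2(TPM + 1) scale as replicate 1 minus replicate 2. A mean of 10 TPM or more was reached by 7 of the 9 genes, and 3 of these differed 2-fold or more, with Fech higher in replicate 1 and Tfrc and Urod higher in replicate 2. Over all genes at that level, 51.3% differed 2-fold, 24.7% higher in replicate 1 and 26.6% in replicate 2, so a count of 3 in 7 is near the background. In counts per 1000000 the Urod difference was -0.78, under 2-fold, which left 2 of 7, beside 51.2% of all genes at that level. The count was also 2 of 7 with TMM factors (51.1% of all genes), with DESeq2 size factors (51.2%) and over protein-coding transcripts alone (51.8%). At a fold of 1.5 it was 4 of 7, beside 66.8% of all genes. With no filter on level it was 5 of 9, beside 49.2% of the 14226 gene rows with counts in either library. Counted without the threshold, 4 of the 9 were higher in replicate 1 (Ftl1, Fth1, Alad and Fech) and 5 in replicate 2, in TPM and under each count scaling tried. The differences were 0.16 for Ftl1, 0.04 for Fth1, 0.12 for Alad, -0.73 for Alas2, -1.10 for Urod, -3.45 for Tfrc and 3.38 for Fech. Their median was 0.04, beside -0.02 over the 7680 genes at that level, and with Cpox at -3.84 and Slc25a37 at -3.67 the median of all 9 was -0.73. Each pool gave a single library, so no repeat of a pool stands behind these differences.

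Over all genes, the libraries lay closer together at higher levels. Among the 139 genes whose mean reached 1000 TPM, which include both ferritin genes, 0% differed 2-fold and the median absolute difference was 0.18. The share that differed 2-fold was 28.9% at 100 to 200 TPM, where Urod lies, and 42.9% at 50 to 100 TPM, where Alad lies. It was 56.1% at 20 to 50 TPM, where Tfrc and Alas2 lie, with a median absolute difference of 1.21. At 10 to 20 TPM, where Fech lies, it was 75.6%, and at 5 to 10 TPM, where Cpox and Slc25a37 lie, 82%. The median absolute difference was 3.36 at 10 to 20 TPM and 3.57 at 5 to 10 TPM. Fech thus lay at about the median gap of its range and Cpox and Slc25a37 a little above theirs, while Tfrc lay well above the median of its range.

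A near absence from one library was also common at low levels. Cpox had 0% and Slc25a37 0.451% of their depth-scaled counts in the lower library. Under 1% was found for 53.6% of genes at 5 to 10 TPM, 43.3% at 10 to 20, 16.4% at 20 to 50, 3.57% at 50 to 100 and 0.24% at 100 to 200. Fech had 5.14% of its counts in the lower library and Tfrc 8.60%. Of the 9 genes, 5 had more than 1 transcript and at least 5 TPM in both libraries, and by share of TPM all 5 had the same leading transcript in both, against 65.6% of 4352 such genes. By counts 4 of the 5 did, against 70.5%, since the leading Tfrc transcript by counts was ENSMUST00000128285 in replicate 1 and ENSMUST00000023486 in replicate 2. By share of TPM the Tfrc lead in replicate 2 was narrow, at 35.4% for ENSMUST00000128285 against 34.8% for ENSMUST00000023486.

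**Figure D5:**
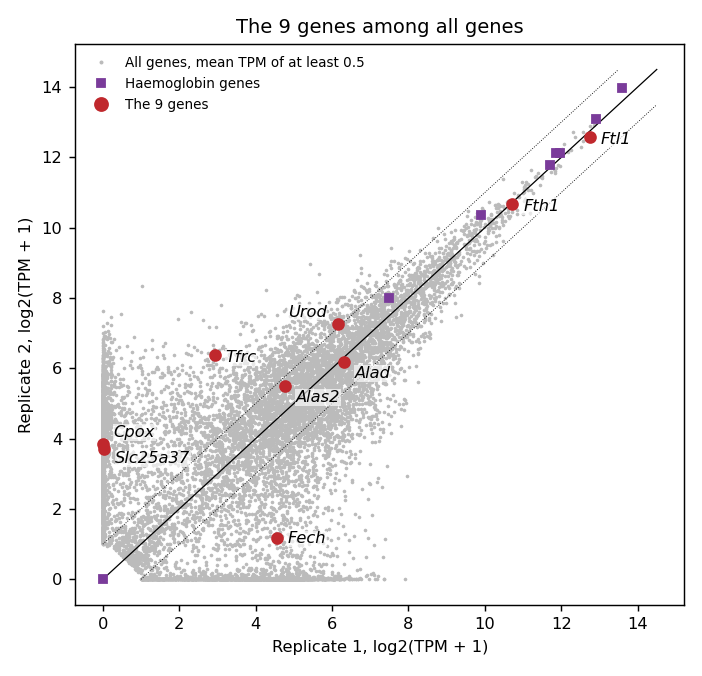
Level of each gene in replicate 1 against replicate 2 as log2(TPM + 1), for every gene averaging 0.5 TPM or more (grey), haemoglobin genes (purple) and the 9 genes (red), with equality as a solid line and a shift of 1 on each log2 axis as dotted lines. Ftl1, Fth1, Alad and Alas2 lie within the dotted lines, Urod just outside, and Tfrc, Fech, Cpox and Slc25a37 well outside among many other genes.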

How the data were processed

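Per the text deposited with the tables, they use mouse assembly mm10 and GENCODE release M4. The sources used here do not name the aligner, the quantification program or the use of strand. The authors' tables give expected counts per gene and transcript, which need not be whole. They give TPM over all rows, spike-ins included, as a point estimate and a posterior mean. The deposited transcript tables list each transcript's share of its gene as a percent of TPM. The deposited interval limits of TPM were read as a score, since their level is not stated. Effective lengths in bases come from the same deposited tables.

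Symbols, coordinates (1-based), transcript classes and sequences were taken by ID from GENCODE M21, on the same assembly, which matched 42462 of 43346 gene rows (98.0%). Fth1 has 866 bases in the deposited tables and 929 in M21, so its element was located in the M21 transcript. Of the 5 deposited Ftl1 transcripts, 1 has its ID in M21. Counts per 1000000 (CPM) were computed from expected counts over gene rows. Differences used a pseudocount of 1 on log2(TPM + 1), which understates the change of low genes. Share and ratio intervals are 95% exact (Clopper-Pearson) on rounded counts, and since no molecular identifiers are named and reads may be copies of one molecule, they and the floor of 3 counts cover counting error only. Alternatives used TMM factors from edgeR 4.0.16 and size factors from DESeq2 1.42.0 on rounded counts, with no test. The element search used GENCODE transcripts.

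Named genes are the 9 members, all listed haem synthesis and haemoglobin genes, from each other list the 3 members of highest mean TPM and defining members at 0 counts, and ferritin-named or overlapping rows with at least 10 counts. Other genes were named after their values were seen. Some genes of these lists are not reported here. Members and lists were chosen with earlier results of these data known. The symbols Hjv and Ahsp found no match.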

Additional observations from a re-analysis of the deposited data

How the results depend on the processing

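No paired analysis was possible because the labels give one group, so no groups share replicate numbers. Of the summary results under each alternative, 42 values stayed within the spread between libraries or, for counts, within 1.5 times, and 8 did not. Some of the 42 could not have moved. A level or ratio with either library left out always stays within the SD. Rescaling TPM to genes leaves a ratio or share of TPM unchanged. For the median difference the spread was 0.78, taken from the gaps of the 9 genes themselves, so even -0.73 counted as within it. The summed level of the 9 genes, 8429 TPM as a mean, became 9116 when TPM was rescaled to genes without spike-ins, 5932 in CPM without length, and 14457 with pseudogene and overlapping rows added, the last through the very short Gm22133. It was 8125 to 8732 with either library left out. The ratio of Fth1 to Ftl1, 0.257, became 0.228 in CPM and 0.133 with those rows added, and was 0.246 to 0.268 with either library left out. The share of Alas2, 25.3%, became 23.1% in CPM and 28.5% with the overlapping Apex2 added, and was 24.0% to 26.6% with either library left out. Members differing 2-fold numbered 5 of 9 with no filter on level, where 49.2% of all rows with counts did. They numbered 2 of 7 in CPM, with TMM factors, with DESeq2 size factors, and over protein-coding transcripts alone, an alternative chosen after seeing the data, and in each Urod was the gene lost, where 51.1% to 51.8% of all genes differed. The median difference was 0.04 to 0.10 over these settings except with no filter, where it was -0.73. Detection in both libraries held for 7 genes, 6 at 5 TPM, and 7 to 9 passed 1 TPM in a single library. At a fold of 1.5, 4 of 7 members and 66.8% of all genes differed. By counts, also chosen after seeing the data, 4 of 5 members kept their leading transcript, Tfrc excepted. Leaving out a library gives no difference between libraries. The cause of these shifts was not tested. Low counts limit Slc25a37 and Ppox, with 3 counts each in replicate 1.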

Other observations

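The genes nearest in level to 3 of the members, by distance on the log2(TPM + 1) scale over 2 libraries, were as follows. For Ftl1 they were Hist1h2ap at a distance of 0.09, mt-Atp8 at 0.22 and mt-Atp6 at 0.30. For Tfrc they were Tcf3 at 0.16, with 6.56 and 92.2 TPM, Lztfl1 at 0.17 and Trafd1 at 0.19. For Alas2 they were Rasa1 at 0.0033, with 26.4 and 44.4 TPM, Eif3j2 at 0.03 and Ndfip2 at 0.04. A pattern over 2 libraries is only a pair of levels.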
